A study of Equus caballus with 10 samples.

Results

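The genes described here are 10 genes of cell-to-cell junctions and membrane channels in equine tenocytes. They are the cadherins CDH2, CDH6, CDH11 and CDH13, the connexins GJA1, GJB2 and GJC1, and the pannexins PANX1, PANX2 and PANX3. They were chosen by name, and all 10 were found among the 29196 genes of the table. The cells were primary tendon cells of 5 donor horses, Thoroughbred or Thoroughbred-type, taken from the superficial digital flexor tendon and cultured in 3D bovine type I collagen gels for 14 days in medium with fetal bovine serum. From each donor 1 library had PF-06650833 alone (PF alone), and 1 library had IL-1β plus PF-06650833 (IL-1β + PF). PF-06650833 inhibits the kinase IRAK-4 and was given each day at 100 nM, and IL-1β was given at 17 ng/ml with the medium, at intervals of 3 to 4 days. All 10 libraries therefore come from cells under IRAK-4 inhibition, and the comparison asks how the genes respond to IL-1β while the inhibitor is present. The 5 lines 090811, 130911, 180412, 250718B and CD are called donors 1 to 5.

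Cadherins are calcium-dependent adhesion proteins that bind their like on the neighbouring cell, and catenins tie their tails to the actin cytoskeleton. Connexins assemble into gap junctions, which let ions and small molecules pass from cell to cell. Pannexins form channels that mostly open to the outside of the cell and release ATP, rather than joining cells. In tendon, the long processes of the tenocytes touch each other, and N-cadherin, cadherin-11 and connexin 43 are found at these contacts.

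Expression was deposited as variance-stabilized log2 values, on which a gene without reads has the value 3.433. Levels on this scale are not corrected for gene length, so they were compared between libraries for the same gene and not between genes. The reads on genes, estimated from the spacing of the lowest values, numbered 26590893 to 36093461 per library with PF alone and 26925517 to 33523384 with IL-1β + PF. CDH2, CDH11, CDH13, GJA1, GJC1, PANX1 and PANX2 had reads in all 10 libraries. CDH6 had reads in 6, GJB2 in 7 and PANX3 in 9 libraries, and all 10 members passed the filter of reads in at least 5 libraries, CDH6 through the 5 libraries with PF alone. In bulk RNA, fewer cells of a type and less RNA per cell cannot be told apart.

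Of the 10 genes, 3 were differentially expressed, with the study's limits of 0.05 for the adjusted p and 1 for the absolute log2 fold change (limma, Benjamini-Hochberg adjustment over 17992 tested genes). CDH13 and CDH6 were lower with IL-1β + PF, and PANX2 was higher. CDH6 passed the filter only through the PF alone libraries, the group in which it was higher. Of all tested genes 6.68% were differentially expressed, 3.11% higher and 3.57% lower. The same 3 members were differentially expressed with the donor as a block, where 8.26% of all tested genes were. GJC1 had an adjusted p below 0.05 but a smaller change, which brought the members below that p to 4, where 15.5% of all tested genes were. The 10 members had a median log2 fold change of -0.45, and all tested genes had -0.01. All 5 donors moved in the same direction for 5 of the 10 members, CDH2, CDH6, CDH13, GJC1 and PANX2, against 32.7% of all tested genes.

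**Figure D1:**
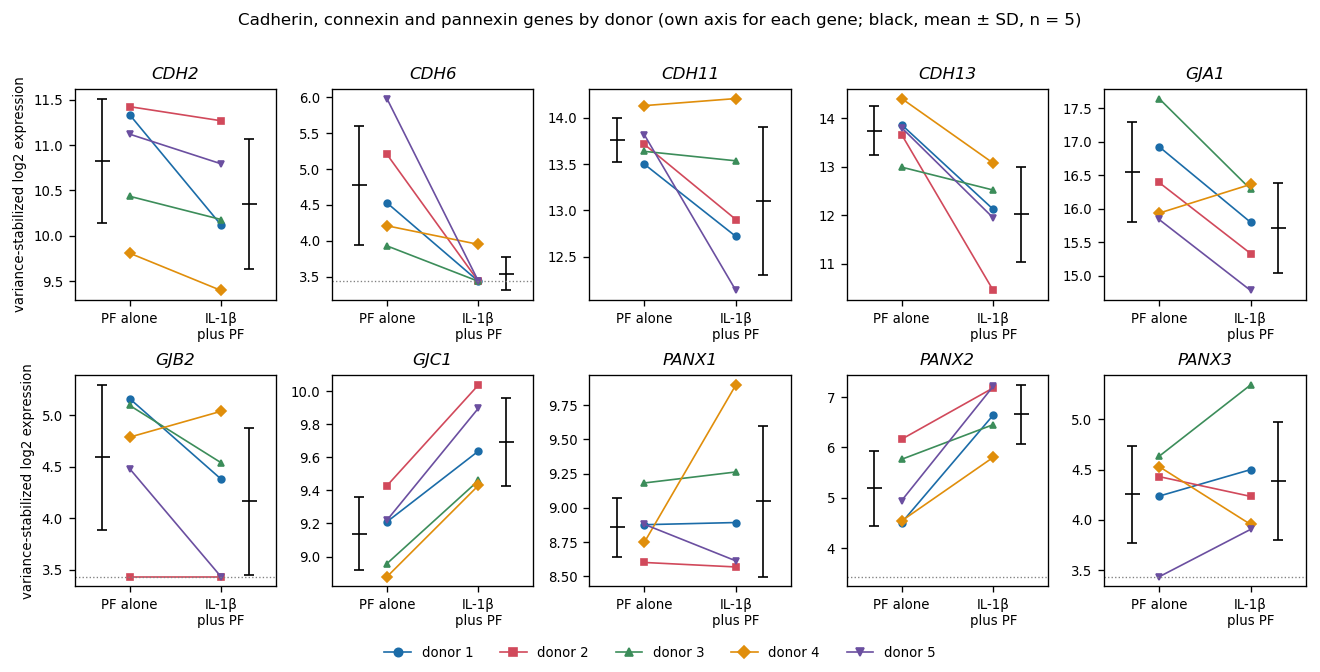
Variance-stabilized log2 expression of the 10 genes in the 10 libraries, with 1 panel and its own vertical axis for each gene. Coloured lines join the 2 libraries of a donor, black bars give the mean and SD of 5 libraries, and the dotted line marks the value of 0 reads at 3.433. All 5 lines fall for CDH13 and rise for GJC1 and PANX2, while the line of donor 4 rises for GJA1.

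CDH13 encodes T-cadherin, an unusual cadherin that is held in the membrane by a lipid anchor, has no cytoplasmic tail and binds the hormone adiponectin. Its log2 fold change was -1.73 (95% confidence interval -2.66 to -0.79, standard error 0.42, limma, adjusted p = 0.0193), which corresponds to a 3.31-fold lower level. With PF alone, its log2 expression in donors 1 to 5 was 13.87, 13.67, 13.00, 14.41 and 13.81. With IL-1β + PF, it was 12.13, 10.45, 12.52, 13.08 and 11.95 in the same order. Every donor was lower with IL-1β, and the groups touched only where donor 4 with IL-1β lay above donor 3 without it. The differences within a donor ranged from -3.21 in donor 2 to -0.47 in donor 3. CDH13 remained differentially expressed when any 1 library was left out, and lost the call when both libraries of donor 1 (adjusted p = 0.0856 from limma) or of donor 5 (0.0845) were left out.

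ADIPOQ, the gene of adiponectin, was looked at after its values had been seen. On the log2 scale it stood at 6.53 ± 0.84 (SD, n = 5) with PF alone, while it reached 9.63 ± 1.26 (SD, n = 5) with IL-1β + PF, and the log2 fold change was 3.11 (limma, adjusted p = 0.00543). It was higher in 5 of 5 donors and its groups did not overlap, which was so for 12.7% of all tested genes. ADIPOQ was thus higher and CDH13 lower in each donor, where 32.7% of all tested genes moved in the same direction in all 5 donors. A link between these genes was not tested.

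CDH6 encodes cadherin-6, a type II cadherin known best from the kidney. It had few reads. With PF alone there were 6, 14, 1, 3 and 42 estimated reads in donors 1 to 5, and with IL-1β + PF there was 1 read in donor 4 and 0 in the other 4 donors. All donors had fewer reads with IL-1β, but donor 3 went from 1 read to 0, and donor 5 alone held most of the reads. The log2 fold change was -1.23 (standard error 0.35, adjusted p = 0.0345 from limma), and -2.93 on the scale of log2(normalized count + 1), since variance stabilization compresses differences between low values. Summed over donors the 66 reads against 1 gave a ratio of 62.9 per read sequenced (exact 95% confidence interval 10.9 to 2520), an interval that covers counting error and not the spread between donors. CDH6 passed the filter only through the PF alone libraries, and with IL-1β + PF 4 values were tied at 0 reads. Neither the adjusted p nor the ratio is therefore independent support for a difference.

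The CDH6 call rested on few libraries. It was lost without donor 1 or donor 2 of the PF alone libraries (adjusted p = 0.0534 and 0.0777 from limma), and without donor 5, when the log2 fold change of -0.93 was under the minimum. It was also lost without donor 1, 2, 3 or 5 of the IL-1β + PF libraries, with adjusted p from 0.0566 to 0.0764.

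CDH2 encodes N-cadherin, the classical cadherin of mesenchymal cells. Its log2 expression with PF alone was 11.34, 11.42, 10.44, 9.81 and 11.12 in donors 1 to 5, and with IL-1β + PF it was 10.12, 11.27, 10.18, 9.40 and 10.79. Each donor was lower with IL-1β, donor 1 by 1.22 and the others by between 0.16 and 0.41, but the groups overlapped widely because donor 4 was low and donor 2 high in both. The log2 fold change was -0.47 (95% confidence interval -1.31 to 0.36, adjusted p = 0.451 from limma). This fit leaves the spread between donors in the error, and its interval reached decreases of more than 1. With the donor as a block the interval was -0.83 to -0.11 (adjusted p = 0.0649 from limma), and CDH2 was not differentially expressed in either fit.

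CDH11 encodes cadherin-11, a type II cadherin of fibroblasts and osteoblasts that shapes the contacts of synovial fibroblasts. With PF alone the libraries lay close together, between 13.50 and 14.13, with an SD of 0.24. With IL-1β + PF they spread from 12.13 in donor 5 to 14.21 in donor 4, with an SD of 0.80. Donors 1, 2 and 5 were lower by 0.78, 0.81 and 1.69, while donors 3 and 4 differed by -0.10 and 0.08. The log2 fold change was -0.66 (95% confidence interval -1.37 to 0.05, adjusted p = 0.199 from limma). With the donor as a block the interval was -1.21 to -0.11 (adjusted p = 0.0841 from limma), and CDH11 was not differentially expressed in either fit.

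**Figure D2:**
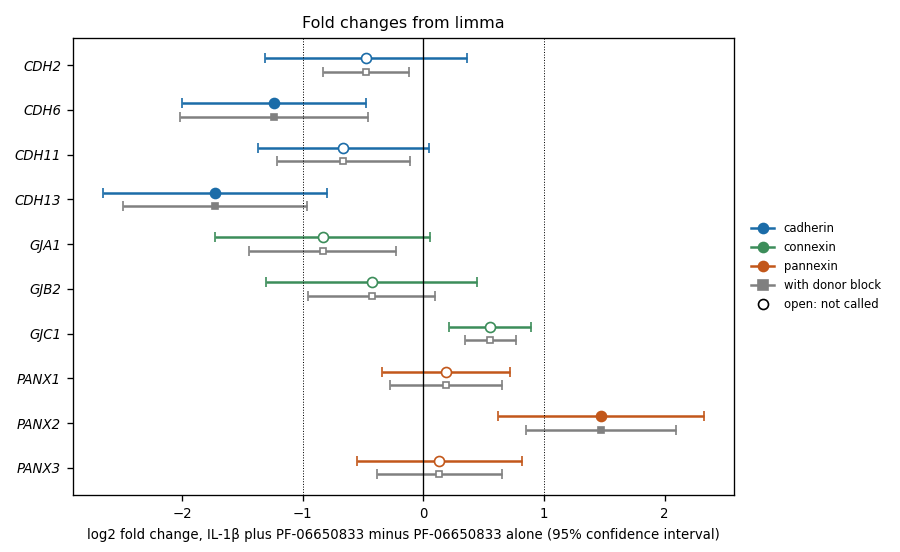
Log2 fold changes of the 10 genes, IL-1β + PF minus PF alone, with 95% confidence intervals from limma (horizontal axis). Circles are from the fit without a donor term and grey squares from the fit with the donor as a block, filled where the gene was differentially expressed, and dotted lines mark a log2 fold change of -1 and 1. CDH6 and CDH13 lie on the left and PANX2 on the right, and the intervals of GJC1 exclude 0 but lie between the dotted lines.

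Among the connexins, none (0 of 3) was differentially expressed by limma at the minimum fold change, and 1, GJC1, had an unadjusted p below 0.05. GJA1 encodes connexin 43, the main connexin of tenocytes and of most connective tissue cells, and its values rested on 24197 to 156052 estimated reads per library. With PF alone its log2 expression was 16.92, 16.39, 17.64, 15.93 and 15.84 in donors 1 to 5. With IL-1β + PF it was 15.79, 15.33, 16.29, 16.36 and 14.78. Donors 1, 2, 3 and 5 were lower with IL-1β by close amounts, between 1.06 and 1.35, and donor 4 was higher by 0.43.

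Over all 5 donors the log2 fold change of GJA1 was -0.83 (standard error 0.41, 95% confidence interval -1.72 to 0.06, adjusted p = 0.195 from limma), and the groups overlapped. With the donor as a block and all 5 donors, the interval was -1.45 to -0.22 (adjusted p = 0.0578 from limma), and GJA1 was not differentially expressed. Without both libraries of donor 4 and without the block, the log2 fold change was -1.15, with an adjusted p of 0.117 from limma. With the donor as a block and without donor 4, a fit chosen after the values had been seen, it was also -1.15, with an adjusted p of 0.00268 from limma, and GJA1 was then differentially expressed. Donor 4 was left out because it differed, so this value describes the other 4 donors and is no independent test. The library of donor 4 with IL-1β had 26925517 estimated reads, the fewest of its group, and 59673 of them were of GJA1. The library of donor 3 with PF alone had fewer, 26590893. Whether depth has a part in the difference of donor 4 was not tested.

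GJC1 encodes connexin 45, a connexin that can form channels together with connexin 43. It had the most even response of the 10 members. The donors were higher with IL-1β + PF by 0.43, 0.61, 0.50, 0.55 and 0.68, from 9.14 ± 0.22 (SD, n = 5) to 9.69 ± 0.27 (SD, n = 5). The groups did not overlap, by a narrow margin, with 9.428 as the highest value with PF alone and 9.430 as the lowest with IL-1β + PF. It was the only member whose groups did not overlap, where 12.7% of all tested genes had such groups. The log2 fold change of 0.55 (standard error 0.15, limma, adjusted p = 0.0331) was under the minimum of 1, so GJC1 was not counted as differentially expressed. The 2 connexins thus had fold changes of opposite sign, GJA1 negative and GJC1 positive, in donors 1, 2, 3 and 5.

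GJB2 encodes connexin 26, a connexin of epithelia and the inner ear. It had 15, 0, 12, 9 and 6 estimated reads in donors 1 to 5 with PF alone, and 4, 0, 6, 11 and 0 with IL-1β + PF. Donor 2 had no reads in either library, donor 4 had slightly more with IL-1β, and the others had fewer. GJB2 was not differentially expressed (log2 fold change -0.43, 95% confidence interval -1.30 to 0.45, adjusted p = 0.525 from limma). Summed over donors there were 42 reads with PF alone against 21, a ratio of 1.9 per read sequenced (exact 95% confidence interval 1.10 to 3.39). That interval covers counting error and leaves out the spread between donors, which the limma fit includes.

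**Figure D3:**
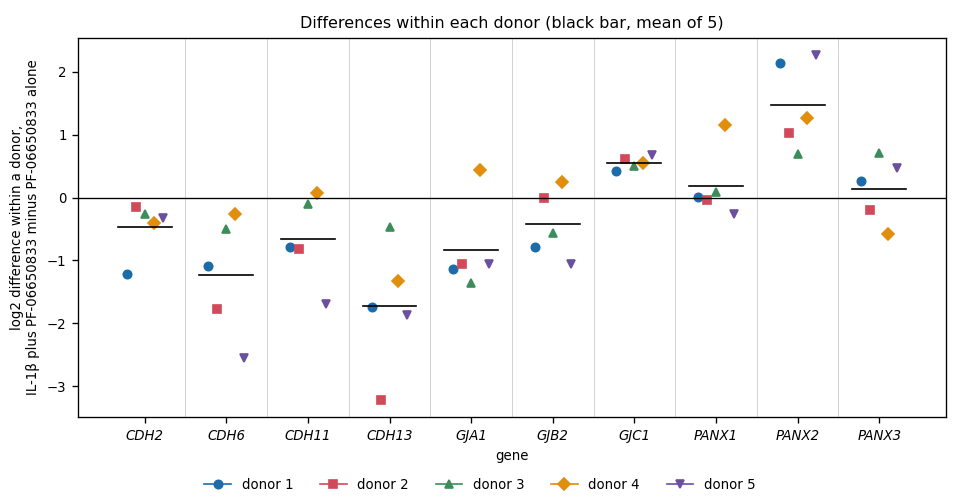
Difference in log2 expression within each donor, IL-1β + PF minus PF alone (vertical axis), for the 10 genes (horizontal axis), with 1 symbol per donor and a black bar at the mean of 5. The 5 symbols of GJC1 lie between 0.43 and 0.68, and donor 4 lies apart from the other donors for GJA1 (0.43) and PANX1 (1.15).

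Of the pannexins, PANX2 rose and the other members did not pass the test. PANX2 encodes a channel protein found largely on membranes inside the cell and known from the nervous system. It had 6, 39, 27, 6 and 13 estimated reads in donors 1 to 5 with PF alone and 64, 110, 59, 26 and 110 with IL-1β + PF. All 5 donors had more reads with IL-1β. On the log2 scale the groups overlapped only because donor 2 without IL-1β (6.16) lay above donor 4 with it (5.80). On the log2 scale the mean of PANX2 was 5.19 ± 0.74 (SD, n = 5) with PF alone and 6.66 ± 0.58 (SD, n = 5) with IL-1β + PF, which gave a log2 fold change of 1.47 (standard error 0.39, 95% confidence interval 0.62 to 2.32, adjusted p = 0.0259 from limma). On the scale of log2(normalized count + 1) the fold change was 2.22. Summed over donors there were 91 reads against 369, a ratio of 4.26 per read sequenced (exact 95% confidence interval 3.38 to 5.42, counting error only).

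The PANX2 call was lost in 6 of the 10 fits that left out 1 library. These were the fits without donor 1, 4 or 5 of the PF alone libraries (adjusted p = 0.0621, 0.0635 and 0.0618 from limma) and without donor 1, 2 or 5 of the IL-1β + PF libraries (0.0558, 0.0670 and 0.0623). The log2 fold change stayed between 1.28 and 1.72 over all 15 fits with a library or donor left out.

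PANX1 encodes the widely expressed pannexin through which cells release ATP. Its log2 expression was 8.88, 8.60, 9.18, 8.75 and 8.88 in donors 1 to 5 with PF alone. With IL-1β + PF it was 8.89, 8.57, 9.26, 9.90 and 8.61. Donors 1, 2 and 3 differed by at most 0.08 and donor 5 was lower by 0.27, while donor 4 was higher by 1.15. The log2 fold change was 0.19 (95% confidence interval -0.34 to 0.72, adjusted p = 0.660 from limma), and it was -0.02 without the library of donor 4 with IL-1β. For PANX1, an average change of 1 or more in either direction lay outside the confidence interval.

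PANX3, a pannexin of cartilage, bone and skin, had 3, 4, 6, 6 and 0 estimated reads in donors 1 to 5 with PF alone and 5, 3, 19, 1 and 1 with IL-1β + PF. Donor 3 with IL-1β held most of the reads of its group. No difference was detectable at this depth (log2 fold change 0.13, 95% confidence interval -0.55 to 0.82, adjusted p = 0.823 from limma), and the sign turned (-0.10) without that library.

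**Figure D4:**
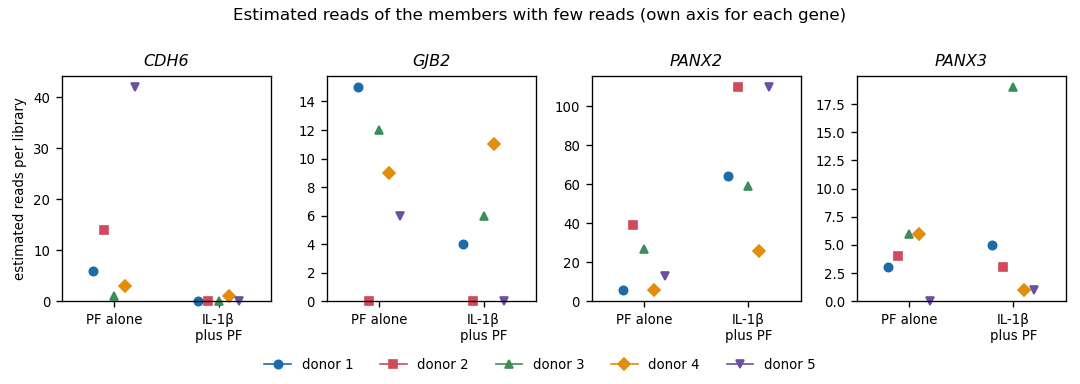
Estimated reads per library (vertical axis, from 0, its own scale for each gene) of the 4 members with few reads, by group and donor. CDH6 has reads in 1 library with IL-1β + PF, PANX2 has 26 to 110 reads with IL-1β + PF against 6 to 39 without IL-1β, and GJB2 and PANX3 stay at or below 19 reads.

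The members also differed in how much of their variation lay between the donors. For CDH2, 79.4% of the sum of squares over the 10 libraries lay between donors and 12.5% between treatments, and the share between donors was also high for GJB2 (76.6%) and PANX3 (75.0%). The medians over all tested genes were 45.8% between donors and 19.1% between treatments. The treatment had the larger share for GJC1 (61.4%), CDH13 (60.4%), PANX2 (60.3%) and CDH6 (56.3%). PANX1 had the smallest share between treatments after PANX3, 6.03% against 1.94%, and the largest share that neither donor nor treatment accounted for, 41.2%. Donor 4 was the only donor that was higher with IL-1β for CDH11, GJA1 and GJB2, and it had the lowest CDH2 and the highest CDH11 and CDH13 of the donors in both groups.

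The other genes of these junctions were taken from lists of symbols. Of 19 other cadherins in the table, 9 had no reads in any library and 6 were tested, of which 1 was lower and 0 higher with IL-1β + PF by limma (4 at an unadjusted p below 0.05, median log2 fold change 0.87). The lower gene was CDH1, which encodes E-cadherin, the classical cadherin of epithelia. Its mean fell from 9.52 ± 0.64 (SD, n = 5) with PF alone to 7.30 ± 1.14 (SD, n = 5) with IL-1β + PF, from 399 to 1455 estimated reads per library to 38 to 314, with an adjusted p of 0.0136 from limma, and was lower in 5 of 5 donors. CDH17 had a log2 fold change of 1.84 and was differentially expressed only with the donor block (adjusted p = 0.00560, against 0.0766 without it, from limma). Of the other epithelial markers, EPCAM and KRT5 had no reads in any library.

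Of 6 other connexins tested, 0 were differentially expressed by limma and 0 had an unadjusted p below 0.05. With the donor block 0 were differentially expressed as well, and GJB5 had an unadjusted p of 0.0158 and an adjusted p of 0.0632 from limma. The smallest adjusted p were those of GJB7 (log2 fold change 0.37, adjusted p = 0.288 from limma), GJA9 (0.32, adjusted p = 0.314) and GJB5 (0.76, adjusted p = 0.351). GJB7 and GJA9 had at most 10 estimated reads in a library, and GJB5 had 2 to 56 with PF alone and 13 to 146 with IL-1β + PF.

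Among 6 scaffold proteins that bind or traffic connexins, 0 were differentially expressed by limma (3 at an unadjusted p below 0.05), with a median log2 fold change of -0.16. TJP1, the zonula occludens protein that binds the tail of connexin 43, had a log2 fold change of -0.66 (adjusted p = 0.00461 from limma). CNST, which carries connexins to the membrane, had a log2 fold change of -0.45 (adjusted p = 0.0174). Both were under the minimum fold change and lower in 5 of 5 donors. EZR, a linker of membrane proteins to actin, had a log2 fold change of -1.06 and passed only with the donor block (adjusted p = 0.00355, against 0.0618 without it, from limma).

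Of 14 catenins and other proteins of the junction plaque tested, 1 was lower and 0 were higher by limma (6 at an unadjusted p below 0.05), with a median log2 fold change of -0.02. AFDN, which encodes afadin, a linker of nectins to actin, fell, with a log2 fold change of -1.05 (limma, adjusted p = 0.0351), in 5 of 5 donors. The β-catenin gene CTNNB1, which encodes the partner of the cadherin tail, had a log2 fold change of 0.12 (adjusted p = 0.699 from limma). JUP, the gene of plakoglobin and the catenin of desmosomes, had a log2 fold change of -0.96 (adjusted p = 0.00482), just under the minimum. CTNNB1 and JUP were named after their values had been seen.

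In the more distant families, 1 of 18 protocadherins and giant cadherins was higher and 1 lower, with a median log2 fold change of -0.10. PCDH7, a protocadherin, rose in its log2 mean from 10.02 ± 1.31 (SD, n = 5) with PF alone to 12.58 ± 0.82 (SD, n = 5) with IL-1β + PF (limma, adjusted p = 0.0144), in 5 of 5 donors. CELSR2, a cadherin of planar cell polarity, fell by 2.03 (adjusted p = 0.00494). CLSTN3 (log2 fold change 1.34) passed only with the donor block (adjusted p = 0.0195, against 0.163 without it, from limma). Of 5 desmosomal genes tested, 2 were lower and 0 higher by limma (3 at an unadjusted p below 0.05, median -0.88), the plakophilin genes PKP1 (log2 fold change -3.11, adjusted p = 0.00430) and PKP2 (-1.28, adjusted p = 0.0228). Another 5 desmosomal genes, among them DSC1 and DSG1, had no reads in any library. Of 7 other large-pore channel genes, 1 was lower and 0 higher by limma (6 at an unadjusted p below 0.05, median 0.14), CALHM2, with a log2 fold change of -1.09 (adjusted p = 0.00453).

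**Figure D5:**
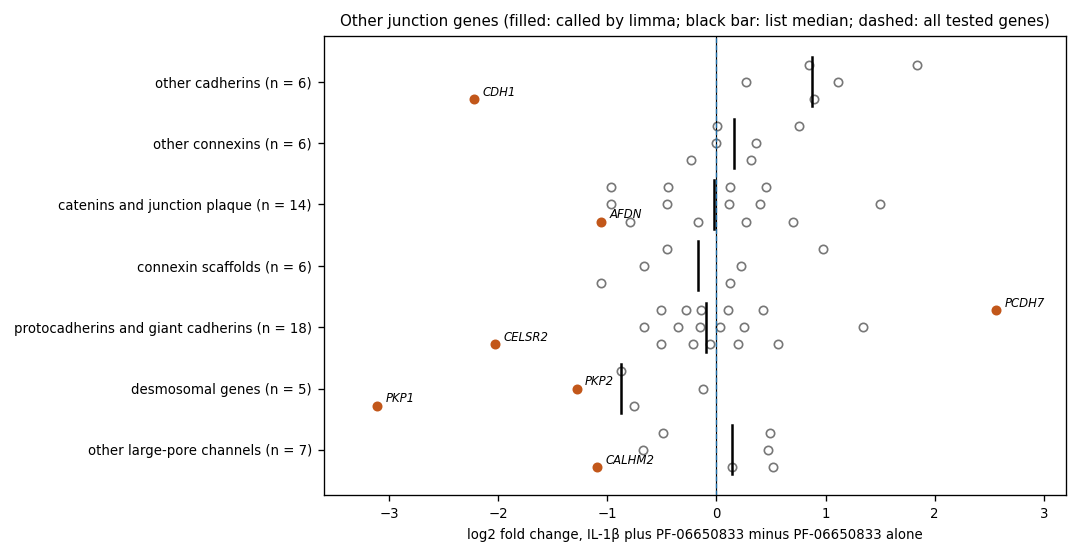
Log2 fold changes of the tested genes of 7 junction lists without the 10 members (horizontal axis, IL-1β + PF minus PF alone). Each circle is a gene, filled and named where it was differentially expressed by limma, with a black bar at the median of the list and a dashed line at the median of all tested genes. PCDH7 is the only filled circle on the right, and CDH1, AFDN, CELSR2, PKP1, PKP2 and CALHM2 are on the left.

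The markers of cell types were looked at beside these genes. Of 9 tested tenocyte markers, 3 were lower and 0 higher by limma (5 at an unadjusted p below 0.05), SCX, MKX and COMP, and TNMD, the gene of tenomodulin, had no reads in any library. With the donor block 5 were lower, the collagen genes COL1A1 and COL1A2 in addition. The endothelial markers summed to 16.3 to 50.4 normalized counts per library with PF alone and 5.12 to 30.7 with IL-1β + PF, with 0 of 5 differentially expressed by limma (2 at an unadjusted p below 0.05). No library held more than 7 reads of CDH5, the cadherin of endothelium. The leukocyte markers summed to 52.8 to 1756 and 170 to 1907, with AIF1 and CD3E at 0 reads everywhere, and 1 of 2, CD68, was higher.

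The epithelial markers summed to 539 to 1574 with PF alone and 45.4 to 444 with IL-1β + PF. Of the 3 tested, 1, CDH1, was lower by limma (2 at an unadjusted p below 0.05, median log2 fold change -0.51). Of 7 smooth muscle and pericyte markers, 3 were lower, RGS5, DES and CSPG4, and 0 higher by limma (3 at an unadjusted p below 0.05), with sums of 29719 to 201362 and 39101 to 82893. With the donor block ACTA2 made it 4. Of 3 adipocyte markers 1, ADIPOQ, was higher (sums of 17.8 to 248 and 364 to 3556), and 2 with the block, LPL in addition. Of 3 chondrocyte markers, ACAN and SOX9 (2) were lower (sums of 4483 to 13027 and 300 to 586, COL9A1 at 0 reads everywhere). Of 3 osteoblast markers, 0 were differentially expressed by limma and 1 had an unadjusted p below 0.05, with a median log2 fold change of -0.04. Their list had sums of 1409 to 9311 and 3628 to 109205, with IBSP and DMP1 at 0 reads everywhere. With the donor block 1 was higher, ALPL, which encodes alkaline phosphatase, with a log2 fold change of 2.86 in 5 of 5 donors (limma, adjusted p = 0.000864, against 0.0573 without the block). The Schwann cell markers summed to at most 12.8 in any library, with 0 of 1 differentially expressed (0 at an unadjusted p below 0.05). The block changed no call in the endothelial, leukocyte, epithelial, chondrocyte or Schwann cell lists. Markers with reads were named after their values had been seen. The part of these cell types in the changes of the 10 genes was not tested.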

How the data were processed

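Per the labels, RNA of 10 samples was sequenced on an Illumina NovaSeq. The authors checked reads with FastQC (version 0.11.9), assigned them to the EquCab3.0 transcriptome with Salmon (version 1.8) with correction for GC bias, summed them to genes with tximport and used DESeq2 (version 1.36). The values deposited by the authors are log2 values, recognised from the values themselves as variance-stabilized and normalized between libraries, since the methods name no transformation. Values of gene families with shared reads are less certain.

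All 10 columns were used. Normalized counts were recovered by inverting the transformation from its value at 0 reads, 3.433, and the value of 1 read was the spacing that put most low values within 0.15 of a whole read. Between 64.0% and 82.7% of low values lay there, against 30% for evenly spread values, so read numbers are estimates, and counting intervals cover counting error only. Depth sets the precision of genes with few reads.

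Genes with reads in at least 5 of the libraries entered a linear model in limma (version 3.58.1) under R (version 4.3.3), with a trend of variance on mean and no donor term, as the study names none. Adjusted p-values are Benjamini-Hochberg over all tested genes and two-sided. Libraries of the same number come from the same donor. Their deviations from the group means correlated at 0.367 to 0.506 across genes, against a mean of -0.11 for different donors. Deviations within a group cancel out, so the mean for different donors largely follows from the same-donor values and is no separate support. The fit was tested on simulated counts. These had no donor effect, and the changes set in them were larger than those of the members and spared genes with few reads. That test therefore does not bear on smaller changes or on genes with few reads. The alternatives were the donor block, other thresholds, filters, scales, normalizations and variance models, and leaving out libraries or donors.

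The members, lists and tests were chosen with earlier results of these data known. All members are named, and from the junction lists each differentially expressed gene or, where there was none, the 3 with the smallest adjusted p. Of the cell type markers, the rule named those without reads. A few genes of the lists are not reported here and were left out of the counts and medians of their lists. All 10 member symbols stand in a RefSeq table of another horse assembly, used for names only.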

Additional observations from a re-analysis of the deposited data

Results flagged for a closer look

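Each member was looked at in each group of 5 libraries and in the 5 differences within a donor for a value far from the other 4. Of 30 such sets, 4 held such a value, where chance gives about 1 in 20 for independent sets without ties. The differences come from the same values as the groups, so the 30 sets are not independent. The within-donor difference of GJA1 was 0.43 in donor 4, against -1.35 to -1.06 in the other 4 donors. That of PANX1 was 1.15 in donor 4, against -0.27 to 0.08. That of CDH2 was -1.22 in donor 1, against -0.41 to -0.16. CDH6 with IL-1β plus PF-06650833 was at 3.95 in donor 4, which is 1 estimated read, against 3.43 in the others, which is 0 reads. With the others tied, any differing value in this set would be flagged.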

How the results depend on the processing

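With the donor as a replicate block, the members differentially expressed were the same 3, CDH6, CDH13 and PANX2, and 1486 genes were in all, against 1202 without it. The block brought other cadherins from 1 to 2, connexin scaffolds from 0 to 1, and protocadherins and giant cadherins from 2 to 3. It changed no other call among the members. The 14 alternatives that kept all donors, or joined the block with leaving out donor 4, found CDH13 and PANX2 in 13 and CDH6 in 12 of the 13 in which it was tested. The exception was the threshold of an adjusted p below 0.01, which left 0 members (0 higher, 0 lower) and 719 genes (345 higher, 374 lower). Without a minimum fold change there were 2782 genes (1362 higher, 1420 lower), and 2 members were higher, GJC1 besides PANX2. With the block and no minimum there were 3996 (1969 higher, 2027 lower), again with 2 members higher. With reads required in all 10 libraries, CDH6, GJB2 and PANX3 were not tested and 1 member was lower. On log2(normalized count + 1) values, 2 genes of the junction plaque were called against 1, and 3 desmosomal genes against 2. Across the 15 fits with a library or donor left out, genes ranged from 762 to 1422 (356 to 647 higher, 389 to 775 lower) and members from 0 to 3 (0 to 1 higher, 0 to 2 lower). In these, CDH13 was called in 13, PANX2 in 7 and CDH6 in 5. PANX1 ranged from -0.051 to 0.31 and PANX3 from -0.10 to 0.31, and PANX1 was at -0.051 with the block and without donor 4. The directions of the other 8 members held under all alternatives run. The cause of these changes was not tested. Few reads limit CDH6, GJB2 and PANX3, and GJB2 also differed widely between donors.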
